A study of Homo sapiens with 6 samples.

Results

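Genes of MHC class I molecules and of their peptide loading were followed in ALL-SIL, an established line of human T-cell acute lymphoblastic leukaemia, after treatment with JQ1. The 9 genes were chosen by symbol, through the Ensembl identifiers of the count tables: the heavy chain genes HLA-B, HLA-C, HLA-E and HLA-F, the light chain gene B2M, the peptide transporter genes TAP1 and TAP2, the loading chaperone gene TAPBP, and NLRC5, the transactivator of class I genes. They are 9 of 58096 genes in the count tables, and 8 of them were among the 13975 genes with enough reads to test. HLA-F was the exception. Other class I heavy chain genes were not used here.

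Total RNA was sequenced in 6 libraries. JQ1 is a small molecule that binds the acetyl-lysine pockets of BET proteins such as BRD2 and displaces them from chromatin. The JQ1 group had 3 libraries of cells given 1 µM JQ1 for 24 h, and the DMSO group had 3 libraries of the same line named as solvent controls. The labels repeat the JQ1 treatment text for the controls, so the groups rest on the sample titles, and whether the replicates were separate cultures is not said there; p-values measure only the spread between these libraries. All groups are of 1 cell line in culture.

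Class I molecules carry peptides from proteins made inside the cell to the surface, where CD8+ T cells read them. Peptides cut by the proteasome are pumped into the endoplasmic reticulum by the TAP transporter, which is built from a TAP1 and a TAP2 subunit. There tapasin, the product of TAPBP, holds the heavy chain and its light chain, beta-2-microglobulin, at the transporter until a peptide fits. NLRC5 has no DNA-binding domain of its own and works at class I promoters through the RFX, CREB/ATF and NF-Y proteins already bound there.

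Gene counts ran from 15925885 to 24857219 in the JQ1 libraries and from 20391040 to 25293884 in the DMSO libraries. The 9 genes together took 0.172% to 0.225% of gene counts in JQ1 libraries and 0.164% to 0.208% in DMSO libraries. Levels below are CPM (counts-per-million) on the effective library size. Differences are log2 fold changes of JQ1 over DMSO with their SE, and a gene is called changed at a Benjamini-Hochberg adjusted p under 0.05 in edgeR's quasi-likelihood test over all 13975 genes. All 6 T cell markers checked had reads in every DMSO library. They summed to 569 to 796 CPM in JQ1 libraries and 972 to 1180 CPM in DMSO libraries. The edgeR test called all 6 lower, where 20.6% of all tested genes were called lower. CD2 passed the filter through the DMSO group, with 24, 29 and 49 reads in DMSO replicates 1, 2 and 3. It had 3, 1 and 0 reads in JQ1 replicates 1, 2 and 3, no more than the floor of 3 counts per library. The call of CD7 (edgeR adjusted p = 0.0492) was lost in 5 of 6 fits that left out a library, all but that without JQ1 replicate 2 (up to 0.1425). Markers of myeloid, erythroid and epithelial or stromal cells summed to at most 0.329 CPM in JQ1 libraries and 0.493 CPM in DMSO libraries, with HBB and ALAS2 at 0. B cell markers summed to 1.61 to 6.35 CPM in JQ1 libraries and 11.5 to 24.5 CPM in DMSO libraries, almost all from CD79A and CD79B, with MS4A1 at 0. NK cell markers summed to 41.6 to 134 CPM in JQ1 libraries and 132 to 223 CPM in DMSO libraries, almost all from NKG7, with NCAM1 at 0. The part of these shifts in the results below was not tested. In bulk RNA of this cell line, fewer cells with these transcripts and less RNA per cell cannot be told apart. The usual readouts of BET inhibition moved: MYC averaged 135 ± 14.8 CPM in JQ1 and 358 ± 12.1 CPM in DMSO libraries (SD, n = 3 each), and HEXIM1 averaged 89.3 ± 19.2 CPM in JQ1 and 29.8 ± 7.17 CPM in DMSO libraries.

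Promoters are the part of these genes at which NLRC5 and its partners are known to act. RefSeq sequence was matched by symbol for 7 of the 9 genes, and the 200 bases before the annotated start are printed for 6 of them, 5′ to 3′ on the strand of the gene (GRCh38.p14). It is the reference sequence, not that of the cell line. Capitals mark matches on either strand to CCAAT (bound by NF-Y), TGACG (the core of a CREB/ATF site), a pair of GAAA with any 2 bases between (an interferon response type element) or GGG and CC with any 5 bases between (an NF-kB type element); matches that overlap run together. The first 3 are heavy chain genes, and B2M, TAP2 and TAPBP follow.
HLA-B, chr6:31357180-31357379, minus strand: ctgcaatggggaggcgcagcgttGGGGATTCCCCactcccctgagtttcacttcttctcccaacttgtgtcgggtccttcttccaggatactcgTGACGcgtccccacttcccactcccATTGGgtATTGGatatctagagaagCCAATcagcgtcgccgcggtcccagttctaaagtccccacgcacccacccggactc
HLA-C, chr6:31272093-31272292, minus strand: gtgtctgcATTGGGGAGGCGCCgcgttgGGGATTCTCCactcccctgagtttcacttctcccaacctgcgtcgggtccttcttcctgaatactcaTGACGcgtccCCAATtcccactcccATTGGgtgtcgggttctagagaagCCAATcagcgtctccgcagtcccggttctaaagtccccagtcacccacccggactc
HLA-F, chr6:29723234-29723433, plus strand: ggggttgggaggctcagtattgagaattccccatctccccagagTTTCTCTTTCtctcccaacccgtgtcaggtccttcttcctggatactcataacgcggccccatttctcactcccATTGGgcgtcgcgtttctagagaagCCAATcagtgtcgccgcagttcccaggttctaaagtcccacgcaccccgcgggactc
B2M, chr15:44711317-44711516, plus strand: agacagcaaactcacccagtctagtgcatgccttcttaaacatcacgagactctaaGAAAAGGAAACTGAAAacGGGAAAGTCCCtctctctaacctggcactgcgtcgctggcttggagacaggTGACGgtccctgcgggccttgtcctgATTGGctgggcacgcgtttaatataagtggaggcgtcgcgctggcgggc
TAP2, chr6:32838740-32838939, minus strand: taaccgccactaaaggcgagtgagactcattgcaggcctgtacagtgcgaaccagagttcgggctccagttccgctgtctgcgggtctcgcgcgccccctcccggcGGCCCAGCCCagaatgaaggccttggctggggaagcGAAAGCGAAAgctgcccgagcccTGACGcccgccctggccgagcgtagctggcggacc
TAPBP, chr6:33314079-33314278, minus strand: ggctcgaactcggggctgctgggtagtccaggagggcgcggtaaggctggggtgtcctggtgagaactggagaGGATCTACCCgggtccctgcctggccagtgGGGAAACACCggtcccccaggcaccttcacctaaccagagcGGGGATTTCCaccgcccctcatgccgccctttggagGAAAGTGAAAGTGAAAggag

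A CCAAT match stood in 4 of the 7 windows (HLA-B, HLA-C, HLA-F and B2M), against 28% of all 35116 promoter windows of the same length. In HLA-B and HLA-C a forward CCAAT began 56 bases before the start, and in HLA-F 57 bases before it. HLA-C held another forward match, 95 bases before the start. Of these genes HLA-F alone was close to 0 reads in ALL-SIL. TGACG stood in 4 of 7 (HLA-B, HLA-C, B2M and TAP2), against 18.4% of all windows. The pair of GAAA stood in 5 of 7 (HLA-F, B2M, TAP1, TAP2 and TAPBP), against 2.4% of all windows. The GGG and CC element stood in 6 of 7, all but HLA-F, against 49.5% of all windows. TTC and GAA with any 3 bases between, the palindrome bound by STAT proteins, was found in 0 of 7, against 5.09% of all windows. The 7 windows are those of the first annotated start of each gene; TAP1 has another RefSeq start, whose window does hold a TTC and GAA match, while the background counts every window. TAP2 and TAPBP, whose counts were lower in JQ1 libraries, and B2M, whose counts were not, share the pair of GAAA. These are letter matches in a window and say nothing about which factor was bound.

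The pathway did not move as 1 block. Of the 8 tested members edgeR called 0 higher and 3 lower under JQ1, all 3 in loading or regulation: TAP2, TAPBP and NLRC5. Among all tested genes 15.9% were called higher and 20.6% lower. In this fit on group alone the tested heavy chain genes and B2M gave no call, with B2M and HLA-E at higher mean levels in JQ1 libraries. The median log2 fold change was −0.17 over the 8 members, against 0.00 over all tested genes. The 3 JQ1 libraries lay above all 3 DMSO libraries for 1 member, HLA-E, and below them for 3 members, TAP2, TAPBP and NLRC5; over all tested genes 22.9% lay above and 26% below. With the replicate number as a block, edgeR called 2 members higher (HLA-E and B2M) and 4 lower (HLA-B, TAP2, TAPBP and NLRC5), where 27.3% of all genes were called higher and 29.6% lower.

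**Figure D1:**
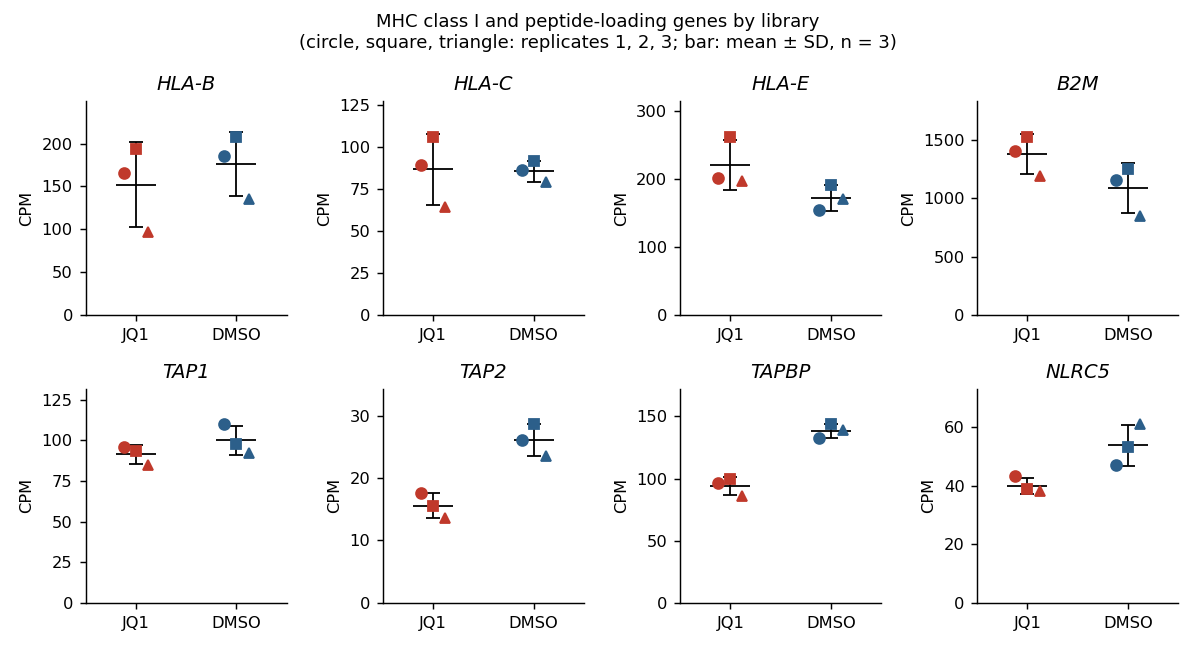
Level of each of the 8 tested members in CPM (axis from 0) in the 3 JQ1 libraries and the 3 DMSO libraries, 1 point per library, with the mean and SD as bars. TAP2, TAPBP and NLRC5 separate downwards under JQ1 and HLA-E upwards, while the points of HLA-B, HLA-C, B2M and TAP1 overlap.

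HLA-B encodes a classical heavy chain, which presents peptide to CD8+ T cells. HLA-B (ENSG00000234745.9) had 166, 193 and 96.8 CPM in JQ1 replicates 1, 2 and 3, against 186, 208 and 135 CPM in DMSO replicates 1, 2 and 3. Replicate 3 was the lowest in both groups, and the groups overlapped. The log2 fold change was −0.21 ± 0.26 (95% interval −0.84 to 0.41, edgeR adjusted p = 0.569). With the replicate number as a block it was −0.25 and called lower (edgeR adjusted p = 0.0030), and without JQ1 replicate 3 it was 0.03 (adjusted p = 0.931). Each JQ1 library stood below the DMSO library of its own number.

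HLA-C, a classical heavy chain that is also a main ligand of killer cell receptors, had the smallest difference of the members. HLA-C (ENSG00000204525.15) averaged 86.7 ± 21.1 CPM in JQ1 libraries and 85.7 ± 6.17 CPM in DMSO libraries (SD, n = 3 each). The 3 JQ1 libraries stood at 89.3, 106 and 64.5 CPM and the 3 DMSO libraries at 86.2, 91.6 and 79.3 CPM. The log2 fold change was 0.02 ± 0.16 (95% interval −0.34 to 0.37, edgeR adjusted p = 0.940), an interval that holds changes of either sign, and the sign turned under 6 of 15 alternatives. Reads that mapped to several places (14.15% to 15.65% of reads) are left out of such counts, and heavy chain genes are alike over long stretches, so their counts are uncertain. In GENCODE 29 the HLA-B model overlaps HLA-C on the same strand, and reads of HLA-C that fall in both would be left out as ambiguous; whether this holds for the annotation used for the counts is not known, and it touches the HLA-C level, share and ratio alike.

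HLA-E encodes a non-classical heavy chain, which presents signal peptides of other class I chains to NK cell receptors. HLA-E (ENSG00000204592.8, chromosome 6, 30489467 to 30494205, plus strand, GRCh38) had 202, 262 and 196 CPM in JQ1 replicates 1, 2 and 3, against 154, 191 and 171 CPM in DMSO replicates 1, 2 and 3. The lowest JQ1 library stood just above the highest DMSO library. The log2 fold change of 0.36 ± 0.13 (95% interval 0.07 to 0.64) missed the threshold after adjustment (edgeR adjusted p = 0.052). It was 0.35 and called higher with the replicate number as a block (edgeR adjusted p = 2.13e-05), and it was also called by DESeq2 (adjusted p = 0.0317), with RLE factors (0.0471) and with no filter on low counts (0.0081). Leaving out DMSO replicate 2 or JQ1 replicate 3 also gave a call (edgeR adjusted p = 0.0395 and 0.0404). The value was 0.21 without JQ1 replicate 2 (edgeR adjusted p = 0.186), 0.29 without DMSO replicate 1 (0.163) and 0.29 with library size only (0.103).

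HLA-F, a non-classical heavy chain known to appear on activated lymphocytes, had almost no reads in these cells. HLA-F (ENSG00000204642.13, chromosome 6, 29722775 to 29738528, plus strand, GRCh38) had 0 reads in each JQ1 library and 1 read in all in the DMSO libraries, in replicate 1. With 0 counts the floor is 3 counts per library, so no fold is given. The antisense gene HLA-F-AS1 and the overlapping pseudogene RPL23AP1 had 0 reads on either strand. Of the 12 annotated genes within 50 kb of HLA-F, 8 had 0 reads in all 6 libraries and the other 4 had 1 read each. Most of the 12 are pseudogenes or non-coding genes. Genes at 0 were common in these data: of all 58096 genes only 26447 had at least 1 read.

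HLA-E held a larger mean share of the heavy chain counts in JQ1 libraries, but the groups overlapped. Of the summed reads of the 4 heavy chain genes HLA-E held 48.6 ± 5.60% in JQ1 libraries and 39.8 ± 4.14% in DMSO libraries, and HLA-B held 32.6 ± 4.85% in JQ1 libraries and 40.4 ± 4.57% in DMSO libraries (SD, n = 3 each). HLA-C held 18.8 ± 0.77% in JQ1 libraries and 19.8 ± 1.03% in DMSO libraries. The ratio of HLA-E to HLA-B counts was 1.22, 1.36 and 2.03 in JQ1 replicates 1, 2 and 3, against 0.829, 0.918 and 1.26 in DMSO replicates 1, 2 and 3. The groups overlapped (2-sided exact permutation p = 0.2, and 0.25 after Benjamini-Hochberg adjustment over 5 ratios; with 3 against 3 the smallest p is 0.1). The ratio of HLA-B to HLA-C was 1.72 ± 0.19 in JQ1 libraries and 2.05 ± 0.30 in DMSO libraries (exact permutation p = 0.3, adjusted 0.3). Within same-numbered pairs, a comparison added after seeing the data, HLA-E to HLA-B was higher in the JQ1 library in 3 of 3 pairs (log2 differences 0.56, 0.56 and 0.69), and HLA-B to HLA-C and the heavy chains to B2M were lower in 3 of 3. With 3 pairs the exact sign-flip permutation test cannot go below p = 0.25, which each of the 5 ratios gave.

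B2M encodes the light chain that every class I heavy chain needs to leave the endoplasmic reticulum. B2M (ENSG00000166710.17, on chromosome 15, away from the HLA cluster) had 1406, 1528 and 1190 CPM in JQ1 replicates 1, 2 and 3, against 1159, 1251 and 848 CPM in DMSO replicates 1, 2 and 3. The higher JQ1 libraries stood above all DMSO libraries, but the lowest JQ1 library lay between the DMSO values. The log2 fold change was 0.34 ± 0.16 (95% interval −0.02 to 0.70, edgeR adjusted p = 0.124). In the fit with the replicate number as a block it was 0.35 and called higher (edgeR adjusted p = 0.000107); without DMSO replicate 3 it was 0.19 (edgeR adjusted p = 0.325), and leaving out single libraries gave 0.19 to 0.46. Each JQ1 library exceeded the DMSO library of its own number. With no filter on low counts it was called too (edgeR adjusted p = 0.0174). The summed heavy chain counts per B2M count were 0.331 ± 0.034 in JQ1 libraries and 0.405 ± 0.045 in DMSO libraries (SD, n = 3 each; exact permutation p = 0.2, adjusted 0.25).

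Replicate 3 was the lowest library of its group for HLA-B, HLA-C, B2M, TAP1 and TAP2 in both groups. On the log2 scale HLA-B lay 0.59 below the group mean in JQ1 replicate 3 and 0.36 below it in DMSO replicate 3 (deviations −0.59 and −0.36), and B2M deviated by −0.20 in JQ1 replicate 3 and −0.34 in DMSO replicate 3. The same libraries had the highest share of reads outside genes in their group, 24.9% in JQ1 replicate 3 and 26.1% in DMSO replicate 3. The part of this in the levels was not tested. NLRC5 did not follow the pattern, with its highest DMSO level in replicate 3.

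TAP1 and TAP2 form a transporter with 1 copy of each, yet their counts parted. TAP2 (ENSG00000204267.13, chromosome 6, 32821833 to 32838780, minus strand, GRCh38) had 17.7, 15.4 and 13.6 CPM in JQ1 replicates 1, 2 and 3, against 26.1, 28.6 and 23.5 CPM in DMSO replicates 1, 2 and 3. The groups were well apart, and TAP2 fell with a log2 fold change of −0.74 ± 0.13 (edgeR adjusted p = 0.0016). TAP1 (ENSG00000168394.10) had 96.3, 93.3 and 84.9 CPM in JQ1 replicates 1, 2 and 3, against 110, 97.8 and 92.5 CPM in DMSO replicates 1, 2 and 3. The TAP1 groups overlapped by a small margin, with a log2 fold change of −0.13 ± 0.09 (95% interval −0.34 to 0.08, edgeR adjusted p = 0.314).

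The ratio of TAP1 to TAP2 counts, which does not depend on library scaling, was 5.45, 6.04 and 6.24 in JQ1 replicates 1, 2 and 3, against 4.21, 3.42 and 3.95 in DMSO replicates 1, 2 and 3. Every JQ1 library exceeded every DMSO library, a log2 difference of 0.62 (exact permutation p = 0.1, the smallest the design allows, adjusted 0.25).

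TAPBP encodes tapasin, which bridges the transporter and the empty class I molecule. TAPBP (ENSG00000231925.11, chromosome 6, 33299694 to 33314387, minus strand, GRCh38) had 96.5, 99.9 and 85.9 CPM in JQ1 replicates 1, 2 and 3, against 133, 144 and 139 CPM in DMSO replicates 1, 2 and 3. The highest JQ1 library was well below the lowest DMSO library, and TAPBP fell with a log2 fold change of −0.56 ± 0.09 (edgeR adjusted p = 0.00089). The ratio of TAPBP to TAP1 counts was 1.00, 1.07 and 1.01 in JQ1 replicates 1, 2 and 3, against 1.21, 1.47 and 1.51 in DMSO replicates 1, 2 and 3. These ratios did not overlap either (log2 difference −0.43, exact permutation p = 0.1, adjusted 0.25).

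TAPBP also had reads on the strand opposite to the gene, which the stranded libraries keep apart. They numbered 186, 171 and 122 in JQ1 replicates 1, 2 and 3, against 29, 63 and 57 in DMSO replicates 1, 2 and 3. As a level that was 7.80 ± 0.260 CPM in JQ1 libraries and 2.02 ± 0.537 CPM in DMSO libraries (SD, n = 3 each), a 3.86-fold difference with no overlap (2-sided exact permutation p = 0.1, the smallest possible). The opposite strand held 7.23% to 8.39% of TAPBP reads in JQ1 libraries and 1.07% to 1.69% in DMSO libraries. Sense reads moved the other way, so a count without regard to strand gives TAPBP a smaller difference, −0.48 on the log2 scale. TAP1 had 6.99 to 10.5 CPM on its opposite strand in JQ1 libraries and 8.23 to 12 CPM in DMSO libraries, where PSMB9 and PSMB8-AS1 are annotated, and the other members had at most 0.628 CPM there in any library.

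**Figure D2:**
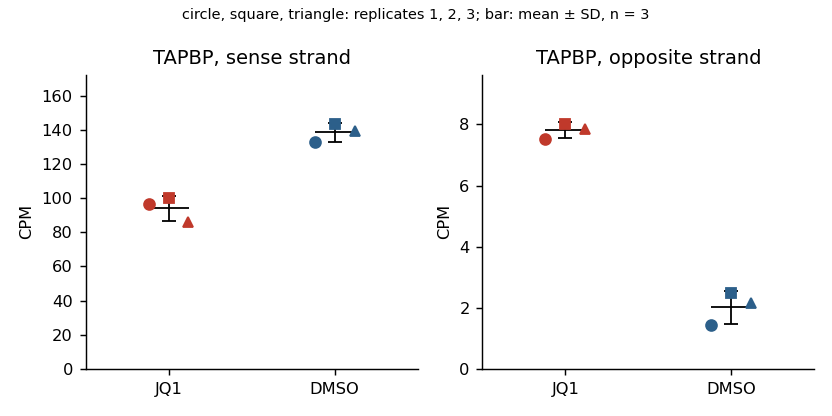
Reads of TAPBP in CPM on the strand of the gene and on the opposite strand, 1 point per library with group means as bars, JQ1 left of DMSO. Sense reads average 94.1 CPM in JQ1 and 138 CPM in DMSO libraries, and opposite-strand reads 7.80 CPM in JQ1 and 2.02 CPM in DMSO libraries.

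NLRC5 encodes the class I transactivator. NLRC5 (ENSG00000140853.15, chromosome 16, 56989485 to 57083531, plus strand, GRCh38) had 43.1, 38.7 and 38.2 CPM in JQ1 replicates 1, 2 and 3, against 46.9, 53.2 and 60.9 CPM in DMSO replicates 1, 2 and 3. All JQ1 libraries stood below all DMSO libraries, and NLRC5 fell with a log2 fold change of −0.42 ± 0.11 (95% interval −0.67 to −0.18, edgeR adjusted p = 0.0125). The call was closest to the threshold without DMSO replicate 3 (edgeR adjusted p = 0.0480). Of the tested protein-coding genes outside the lists, INO80D, UBXN10, PCBP4, PCDHGA8 and TPCN2 had the log2 CPM most like that of NLRC5 (Pearson r 0.982 to 0.988 over the 6 libraries, among 10600 genes). For B2M they were CCNG1, TNIP2, FBXW2, SPAG5 and the translation factor gene EEF1A1, with r up to 0.995. UBXN10 passed the filter through the DMSO group. It averaged 0.091 CPM in JQ1 libraries and 1.05 CPM in DMSO libraries, so its JQ1 level rests on very few reads. The genes were picked for the highest r, and a gap between the groups can raise r by itself, so these r values are no test. These correlations run over the same libraries, which also share depth and treatment.

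**Figure D3:**
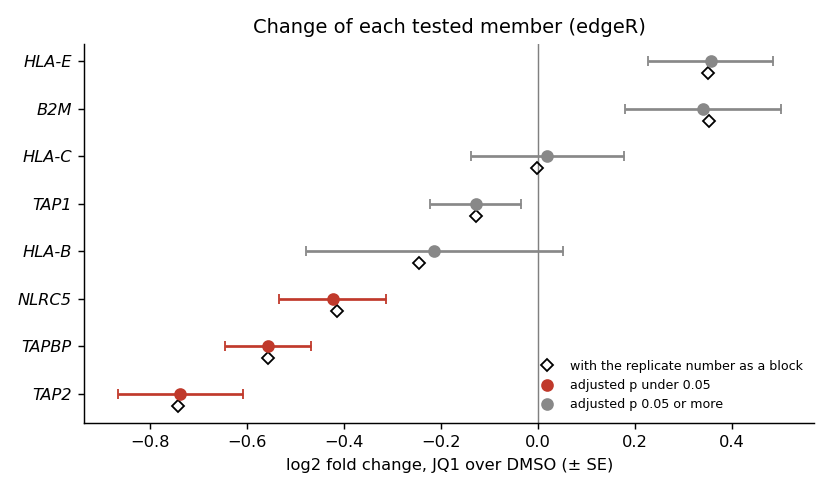
Log2 fold change of JQ1 over DMSO for the 8 tested members with a bar of 1 SE on each side (filled points, red where edgeR called the gene), and the value with the replicate number as a block (open diamonds). TAP2, TAPBP and NLRC5 lie left of 0 in both, and HLA-E and B2M right of 0.

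Set per length, B2M was by far the most abundant. Levels per kilobase of the principal transcript were 806 ± 100 for B2M in JQ1 libraries and 637 ± 124 in DMSO libraries (CPM per kb, SD, n = 3 each). HLA-B followed with 98.2 ± 32.1 in JQ1 libraries and 114 ± 24.1 in DMSO libraries. HLA-E had 84.6 ± 14 in JQ1 libraries and 66.1 ± 7.19 in DMSO libraries. HLA-C had 56.5 ± 13.7 in JQ1 libraries and 55.8 ± 4.01 in DMSO libraries, and TAPBP had 49.8 ± 3.86 in JQ1 libraries and 73.3 ± 2.94 in DMSO libraries. TAPBP stood at rank 5 of the 9 genes in the JQ1 libraries and at rank 3 in the DMSO libraries. These middle ranks are close: HLA-E overlapped HLA-B in JQ1 libraries, TAPBP overlapped HLA-C in JQ1 libraries, and HLA-E overlapped both TAPBP and HLA-C in DMSO libraries. TAP1 came next with 30.9 ± 1.99 in JQ1 libraries and 33.8 ± 3.02 in DMSO libraries, well above TAP2 with 6.23 ± 0.81 in JQ1 libraries and 10.4 ± 1.03 in DMSO libraries. NLRC5 was the lowest of the tested members by this length, at 5.86 ± 0.40 in JQ1 libraries, where it overlapped TAP2, and 7.87 ± 1.02 in DMSO libraries, where it did not. Gene lengths are from GENCODE 29, whose gene versions differ from the files for HLA-B, HLA-C, B2M and TAP1, and with the length of all exons together TAPBP stood at rank 6 in JQ1 libraries and rank 5 in DMSO libraries. By that length TAP2 had the lowest mean of the tested members, at 2.44 ± 0.318 in JQ1 libraries and 4.08 ± 0.402 in DMSO libraries. The mean of NLRC5 stood above it with 3.23 ± 0.219 in JQ1 libraries and 4.33 ± 0.564 in DMSO libraries. TAP2 and NLRC5 overlapped in DMSO libraries by this length, but not in JQ1 libraries.

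Most genes of peptide supply were lower in JQ1 libraries. Of the 7 listed genes, 0 were called higher and 6 lower, with a median log2 fold change of −0.56, beside 15.9% of all tested genes called higher and 20.6% lower. PSMB8, an immunoproteasome catalytic subunit whose gene lies 1937 bases from TAP2, averaged 76.5 ± 8.0 CPM in JQ1 libraries and 166 ± 6.36 CPM in DMSO libraries, a log2 fold change of −1.11 ± 0.10 (edgeR adjusted p = 2.95e-05). ERAP2, which trims peptides in the endoplasmic reticulum, fell by 0.96 (log2 fold change −0.96 ± 0.10, edgeR adjusted p = 6.91e-05). PSMB10 (−0.81 ± 0.13), ERAP1 (−0.56 ± 0.11) and PSME2 (−0.55 ± 0.10) were also called lower. PSMB9 (−0.40 ± 0.14, edgeR adjusted p = 0.041) was called lower, but not when replicate 1 or 3 of the JQ1 group, or 2 or 3 of the DMSO group, was left out (edgeR adjusted p up to 0.143). PSME1, a proteasome activator subunit, was not called (−0.26 ± 0.09, edgeR adjusted p = 0.055), but with the replicate number as a block all 7 were called lower.

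Of the 8 partners of loading and folding in the endoplasmic reticulum, 0 were called higher and 2 lower (25%), with a median of −0.18; the share called lower is near the 20.6% of all tested genes. TAPBPL, the tapasin relative that edits peptides outside the transporter complex, averaged 10.4 ± 0.608 CPM in JQ1 libraries and 20.0 ± 1.46 CPM in DMSO libraries (log2 fold change −0.94 ± 0.12, edgeR adjusted p = 0.00026). CALR, the lectin chaperone calreticulin, fell by 0.56 (log2 fold change −0.56 ± 0.14, edgeR adjusted p = 0.0106). PDIA3, tapasin's disulphide partner, was not called (−0.12 ± 0.16), nor were CANX, UGGT1, BCAP31, HSPA5 and GANAB. With the replicate number as a block 2 of these genes were called higher (BCAP31 and GANAB) and 4 lower (CALR, CANX, TAPBPL and HSPA5), shares of 25% and 50% beside 27.3% and 29.6% of all genes.

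Of 9 listed factors that NLRC5 works through 8 were tested, with 2 called higher, 2 lower and a median of −0.02. These shares of 25% and 25% are near those of all tested genes, 15.9% and 20.6%. NFYA, the DNA-contacting subunit of NF-Y, which binds CCAAT, averaged 112 ± 5.08 CPM in JQ1 libraries and 57.4 ± 6.29 CPM in DMSO libraries (log2 fold change 0.96 ± 0.10, edgeR adjusted p = 7.01e-05). CREB1 rose (0.49 ± 0.10, edgeR adjusted p = 0.0039), and ATF1, its relative, fell (−0.71 ± 0.11, edgeR adjusted p = 0.00069). RFX5 was called lower (−0.27 ± 0.09, edgeR adjusted p = 0.043), and leaving out replicate 1 or 3 of the JQ1 group, or 1 or 2 of the DMSO group, took it past the threshold (edgeR adjusted p up to 0.161). CIITA, the class II counterpart of NLRC5, had 0 reads in all 6 libraries. The block added NFYB to the genes called higher and RFXANK to those called lower.

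Of the 10 interferon and NF-kB regulators, 3 were called higher and 3 lower (30% each), with a median of 0.13, beside 15.9% and 20.6% of all tested genes. NFKB1, which encodes the p50 precursor, averaged 8.12 ± 2.17 CPM in JQ1 libraries and 23.9 ± 3.2 CPM in DMSO libraries (log2 fold change −1.57 ± 0.19, edgeR adjusted p = 0.00023). The interferon-gamma receptor chains went opposite ways, with IFNGR2 lower (−0.74 ± 0.11) and IFNGR1 higher (0.60 ± 0.14). STAT2 (0.67 ± 0.11) and the kinase gene JAK1 (0.63 ± 0.12) rose. IRF1, an interferon-induced activator of class I genes, was called lower (−0.40 ± 0.12, edgeR adjusted p = 0.0248), but not when replicate 1 of the JQ1 group, or 2 or 3 of the DMSO group, was left out (edgeR adjusted p up to 0.0961). RELA, the p65 subunit of NF-kB, was not called (−0.01 ± 0.08). JAK2 was called higher in the fit with the block.

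**Figure D4:**
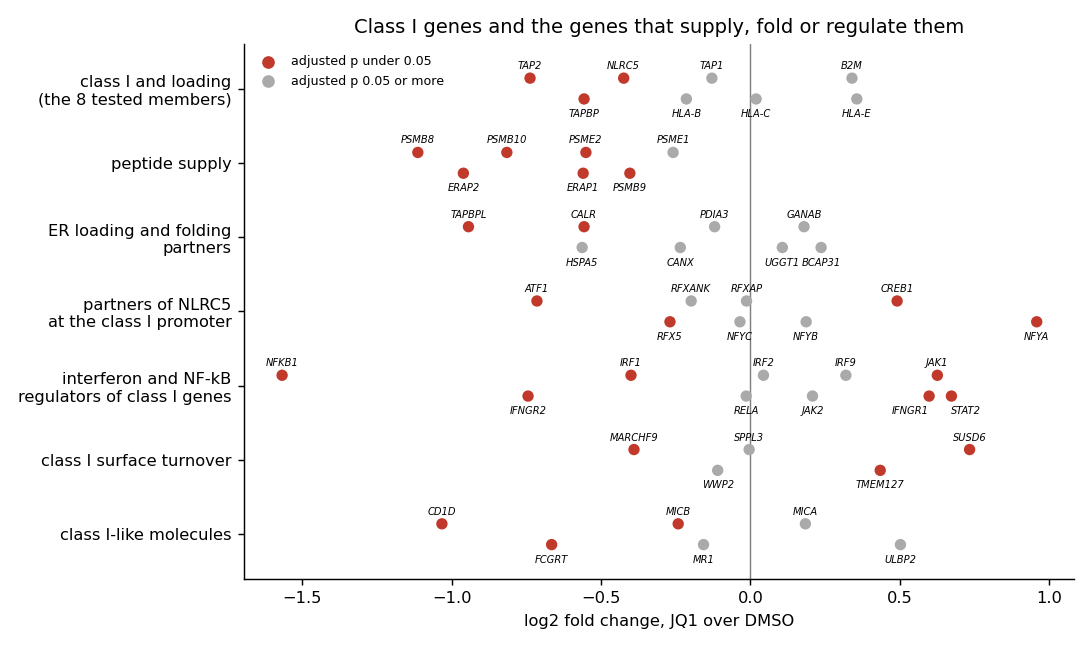
Log2 fold change of JQ1 over DMSO for the 8 tested members and for 6 lists of related genes, 1 point per tested gene, red where edgeR called the gene. The peptide supply genes all lie left of 0, while the partners of NLRC5 and the interferon and NF-kB regulators lie on both sides.

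Genes of class I surface turnover and class I-like molecules were smaller groups. Over all tested genes 15.9% were called higher and 20.6% lower, and lists this small cannot be told apart from such shares. Of 5 turnover genes 2 were called higher (40%) and 1 lower (20%). SUSD6 rose (33.0 ± 2.09 CPM in JQ1 and 19.9 ± 0.366 CPM in DMSO libraries, log2 fold change 0.73 ± 0.10, edgeR adjusted p = 0.00033), as did TMEM127 (0.43 ± 0.13, edgeR adjusted p = 0.0205); both have been described as partners in taking class I molecules off the surface. MARCHF9, a membrane ubiquitin ligase, was called lower (−0.39 ± 0.12, edgeR adjusted p = 0.0274). Without replicate 1 or 2 of the JQ1 group or 3 of the DMSO group the TMEM127 call was lost (edgeR adjusted p up to 0.0733), and so was that of MARCHF9 without replicate 1 or 3 of either group (up to 0.10). Of 10 class I-like genes 6 were tested, with 0 called higher and 3 lower (50%). These were the lipid-presenting CD1D (−1.03 ± 0.23, edgeR adjusted p = 0.0058), the IgG carrier FCGRT (−0.67 ± 0.21, 0.0390) and the NKG2D ligand MICB (−0.24 ± 0.08, 0.0428). FCGRT lost the call without the same libraries as TMEM127 (edgeR adjusted p up to 0.121), and MICB when any single library was left out (up to 0.116).

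Of 6 class I pseudogenes 4 were tested, 1 was called higher (25%) and 0 lower. For this list and the next, the shares over all tested genes were 15.9% called higher and 20.6% lower. HLA-H averaged 2.49 ± 0.243 CPM in JQ1 libraries and 1.36 ± 0.389 CPM in DMSO libraries (log2 fold change 0.89 ± 0.27, edgeR adjusted p = 0.0263), and without replicate 1 or 2 of the JQ1 group or 3 of the DMSO group it was not called (edgeR adjusted p up to 0.0783). Its reads are uncertain because heavy chain genes and their pseudogenes are near-identical over long stretches. Of 5 lncRNA genes beside members 3 were tested, 1 was called higher (HCG27, 0.73 ± 0.21, edgeR adjusted p = 0.0224) and 0 lower; HCG27 lost its call without replicate 2 of the JQ1 group or 1 or 3 of the DMSO group (up to 0.0809). The block added calls of lower counts for the pseudogene HLA-K and the lncRNA gene PSMB8-AS1.

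Class II genes had few or no reads. CD74, HLA-DRA, HLA-DRB1, HLA-DPA1, HLA-DPB1, HLA-DQA1, HLA-DQB1 and HLA-DOA had 0 reads in every library, and 2 of 11 class II genes were tested. HLA-DMB, a chain of the class II peptide editor, had 2, 1 and 3 reads in JQ1 replicates 1, 2 and 3, against 12, 21 and 29 in DMSO replicates 1, 2 and 3. It passed the filter through the DMSO group and had no more than the floor of 3 reads in any JQ1 library, so no fold is given. Its partner gene HLA-DMA was not called, at 1.14 ± 0.496 CPM in JQ1 libraries and 1.15 ± 0.327 CPM in DMSO libraries. Among 7 receptors of class I molecules only the co-receptor genes CD8A and CD8B were tested. Both fell, where 20.6% of all tested genes were called lower. CD8A changed by −1.65 ± 0.13 (edgeR adjusted p = 2.16e-05) and CD8B by −2.12 ± 0.35 (edgeR adjusted p = 0.0011).

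Apart from B2M and NLRC5 the members lie on the short arm of chromosome 6, in the stretch from the start of HLA-F (29722775) to the end of TAPBP (33314387). It holds 148 protein-coding genes, of which 96 were tested, 15 were called higher (15.6%) and 32 lower (33.3%), with a median log2 fold change of −0.11. Over all 10667 tested protein-coding genes 17.0% were called higher and 24.3% lower, with a median of −0.03. Without the members 90 genes remained, with 15 called higher and 30 lower. The nearest tested protein-coding gene on each side of TAP2 was called lower. These were PSMB8, given above, and GPSM3, 626310 bases away (−0.70 ± 0.10, edgeR adjusted p = 0.00055). The nearest ones of TAPBP went opposite ways. RGL2, 370 bases from TAPBP, fell (−0.99 ± 0.19, edgeR adjusted p = 0.0023). ZBTB22, 19 bases from TAPBP on the other side and outside the stretch, rose (0.51 ± 0.13, edgeR adjusted p = 0.0132). BRD2, itself a JQ1 target and located between TAP1 and TAPBP, rose to 531 ± 91.4 CPM in JQ1 libraries, against 357 ± 45.8 CPM in DMSO libraries (log2 fold change 0.57 ± 0.15, edgeR adjusted p = 0.0114).

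**Figure D5:**
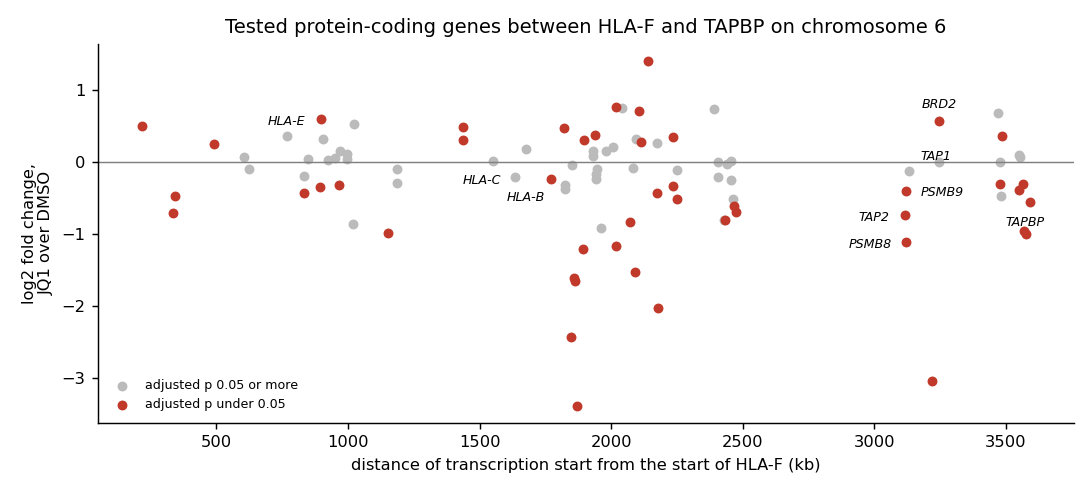
Log2 fold change of JQ1 over DMSO for the 96 tested protein-coding genes of the stretch, against the distance of their transcription start from the start of HLA-F in kilobases, red where edgeR called the gene. TAP2 and PSMB8 lie below 0 and next to each other, TAP1 lies near 0 beside them, and BRD2 lies above 0.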

How the data were processed

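Total RNA of 3 JQ1 and 3 DMSO libraries was measured as read counts per gene. The deposited counts are raw and not normalised; GRCh38 is the build that the submitters' processing notes name, and libraries came from a stranded total RNA kit, per the labels' protocols. No source used here gives the aligner or the annotation release. The files hold 3 count columns in the layout of STAR gene counts; sense-strand counts were taken from the column that exceeded the opposite one by a ratio of 20.9 to 22.6. Read classes stayed out of totals: reads without a mapped place made up 1.48% to 1.99%, reads with several places 14.15% to 15.65%, reads outside genes 18.8% to 26.1% and ambiguous reads 3.38% to 3.88%. Of 58096 identifiers 57492 matched GENCODE release 29 without their version and 53706 with it; positions of genes are printed only where the version matched.

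Genes were kept with filterByExpr (minimum count 10, minimum total 15), scaled by TMM factors (0.965 to 1.06) and tested in R 4.3.3 by the robust quasi-likelihood F test of edgeR 4.0.16 (glmQLFit, glmQLFTest) on group alone. Benjamini-Hochberg adjustment ran over 13975 genes. The SE of a log2 fold change was its absolute value over the root of its F statistic. The scripts were tested on simulated data. Ratios between members were tested with 2-sided exact permutation tests. Levels per kilobase used the longest principal transcript of GENCODE 29. Motifs were searched on both strands of the 200 bases before each RefSeq start, a shorter window than that of the promoter table. Depth was 15925885 to 25293884 gene counts per library; reads carry no molecular identifiers, so floors cover counting error only. Chi-square comparisons found no duplicate libraries. Alternatives were DESeq2 1.42.0, limma 3.58.1 (voom), other scaling factors, other filters, counts without strand, leaving out each library, and the replicate number as a block. The 3 same-numbered pairs deviated together (correlations 0.326, 0.433 and 0.371 across genes), while unlike numbers gave −0.139 to −0.247. Deviations were taken from the group mean, so positive values for same-numbered pairs force negative ones among unlike numbers, which add no evidence. The likeness of same-numbered libraries comes from the data, and the labels do not say what a replicate number marks. The main fit therefore stayed on group alone and does not use a pairing. The fit with the block does, and its calls are given beside the main ones. Named genes were all members, MYC, HEXIM1, BRD2, of each list up to 4 genes with the smallest p and any gene that a count of 5 or fewer refers to, and for NLRC5 and B2M the 5 most alike genes. The members and lists were chosen with earlier results of these data known. 1 gene of the interferon and NF-kB list is not reported here.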

Additional observations from a re-analysis of the deposited data

Results flagged for a closer look

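The opposite-strand reads of TAPBP lie outside the sense counts that the comparisons use, and their level in JQ1 libraries was above that in the control libraries: the mean was 7.80 CPM in JQ1 libraries and 2.02 CPM in DMSO libraries. Over all genes the opposite strand held 4.43% to 4.65% as many reads as the sense strand in JQ1 libraries and 4.48% to 4.79% in DMSO libraries.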

How the results depend on the processing

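The calls of TAP2, TAPBP and NLRC5 and the lack of one for TAP1 kept their side of the threshold and their sign under all 15 alternatives run. TAP2 ranged over log2 fold changes of −0.84 to −0.65, TAPBP −0.62 to −0.48 and NLRC5 −0.51 to −0.32. With the replicate number as a block, 3813 genes were called higher against 2227 without it, and the members called higher were 2 against 0; the same number was 1 with DESeq2, 1 with RLE factors, 2 with no filter on low counts and 0 to 1 when each library was left out. Leaving out a library gave 1707 to 1901 genes called higher and 2436 to 2627 lower, and 3 members lower each time. The block also brought the calls of HLA-B, HLA-E and B2M given above and changed no other member's call. HLA-B turned to 0.025 without JQ1 replicate 3 (−0.42 to 0.03 over single libraries left out). HLA-C turned to −0.0046 with limma-voom, −0.043 with library size only and −0.0026 with the block, and ranged over −0.15 to 0.19 when a library was left out (−0.00014 without JQ1 replicate 1, −0.15 without JQ1 replicate 2, −0.030 without DMSO replicate 3); the cause was not tested. The length of all exons together, an alternative chosen after seeing the data, put HLA-E at rank 2, HLA-B 3, TAP1 5, TAPBP 6, NLRC5 7 and TAP2 8 in JQ1 libraries and HLA-E 3, HLA-C 4, TAPBP 5, NLRC5 7 and TAP2 8 in DMSO libraries. The median of all genes moved by less than 0.1 under every scaling. Genes under about 10 reads in 3 libraries, HLA-F among them, could not be tested at this depth.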
